A study of Homo sapiens with 18 samples.

Results

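The matrix metalloproteinases (MMPs) MMP1, MMP14, MMP15 and MMP24, the plasminogen activators PLAU and PLAT, the urokinase receptor PLAUR and the tissue inhibitors of metalloproteinases TIMP2 and TIMP3 were followed through the transcriptome of HCT116 cells, an established human colorectal carcinoma line. These 9 genes were taken by symbol from the 31004 genes of the count table, and all 9 were listed in it. They were chosen by the level of MMP1, which had been seen higher in Antisense_hnRNPK than in Antisense_NC, so every difference between Antisense_hnRNPK and Antisense_NC is given as a description without a test, as is every difference of MMP1 that involves Antisense_NC. The 6 groups held 3 biological replicates each. Ctrl_NC, CRLM1_NC and Antisense_NC were cells with an empty control, with overexpression of the long noncoding RNA CRLM1 or with an antisense control, each given a negative control in place of the hnRNPK construct. The study describes its antisense control as overexpression of CRLM1 antisense. Ctrl_hnRNPK, CRLM1_hnRNPK and Antisense_hnRNPK were the same backgrounds with overexpression of hnRNPK, a protein that binds C-rich single-stranded RNA and DNA and is encoded by HNRNPK. The study made stable lines by lentiviral transduction and puromycin selection and introduced hnRNPK by transfection. Whether a line was 1 clone or a pool is not stated in the sources used here, so a difference between backgrounds cannot be told apart from a difference between lines.

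MMP1 is a secreted collagenase that cleaves fibrillar collagen. MMP14, MMP15 and MMP24 are membrane-type MMPs, anchored at the cell surface, and MMP14 can activate the secreted gelatinase MMP2 in a complex that contains TIMP2. PLAU (urokinase) and PLAT (tissue-type activator) convert plasminogen into plasmin, a broad protease that can activate MMPs, and PLAUR holds urokinase at the cell surface. TIMP2 is a soluble inhibitor of MMPs, and TIMP3 is an inhibitor that stays bound to the matrix. In carcinomas these genes are studied for invasion, and part of the protease supply in tumour tissue comes from stromal cells, which a cell line culture lacks.

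Total counts per library ranged from 19732681 to 27039520. HNRNPK was measured at 426 to 471 CPM (read counts normalised to library size with TMM scaling) in the 3 NC groups and at 547 to 659 CPM in the 3 hnRNPK groups, as group means. CRLM1, listed as RP4-710M16.2, was at 0 counts in both Ctrl groups, at 598 and 623 CPM in the CRLM1 groups and at 49.4 and 41.9 CPM in the antisense groups. Whether counting used strand is not given, so reads of overlapping genes on opposite strands cannot be taken as separated in these counts. Replicate 3 stood apart in Ctrl_hnRNPK and in CRLM1_hnRNPK. Across 15668 genes, Ctrl_hnRNPK replicate 3 correlated at 0.984 to 0.986 with the Ctrl_NC libraries and at 0.960 to 0.965 with its own replicates, and CRLM1_hnRNPK replicate 3 at 0.980 with the CRLM1_NC libraries and at 0.956 to 0.960 with its own replicates. HNRNPK was at 490 CPM in the former and at 581 CPM in the latter, against 627 to 657 CPM and 677 to 717 CPM in the other replicates of those groups. The study left both libraries out. They were kept here as labelled, and the hnRNPK results are given with and without them. Of 10 epithelial markers, 9 had a mean of at least 1 CPM in every group. Of 4 endothelial markers none did, of 9 fibroblast markers 2 did, and of the 6 leukocyte markers listed 1 or 2 did, with summed levels up to 37.5 CPM for fibroblast and 7.24 CPM for leukocyte markers against 3932 to 10750 CPM for the epithelial list. The summed epithelial level was 8014 to 8287 CPM in Ctrl_NC, 6326 to 6681 CPM in Antisense_NC and 3932 to 4086 CPM in Antisense_hnRNPK. It was 8960 to 9152 CPM in CRLM1_NC. Ctrl_hnRNPK, at 5707 to 9136 CPM, and CRLM1_hnRNPK, at 6242 to 10750 CPM, spanned the levels of their NC groups. The fibroblast sum came almost wholly from COL1A1 (group means of 13.1 to 31.2 CPM) and ACTA2 (3.81 to 7.62 CPM). Group means of the other fibroblast markers were at most 0.157 CPM, so the sum follows those 2 transcripts. This sum was 15.7 to 18.8 CPM in Antisense_hnRNPK against 32.6 to 37.5 CPM in Antisense_NC. In CRLM1_NC it was 34.1 to 37.4 CPM against 25.6 to 29.8 CPM in Ctrl_NC. The part of these marker levels in the differences of the proteolysis genes was not tested. In bulk RNA, fewer cells with a transcript and less transcript per cell cannot be told apart.

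Per transcript length, the urokinase system was the most abundant of these genes. PLAU had group means of 192 to 241 FPKM, the fragments scaled by transcript length and library size, and PLAUR of 90.5 to 147 FPKM. TIMP2 had group means of 11.0 to 35.6 FPKM, MMP15 of 9.0 to 28.6 FPKM and MMP14 of 9.11 to 20.5 FPKM. PLAT stood at 1.52 to 3.23 FPKM, MMP1 at 0.223 to 1.76 FPKM, MMP24 at 0.297 to 0.657 FPKM and TIMP3 at 0.0133 to 0.137 FPKM. Every library held more PLAU than PLAT, with PLAU over PLAT ratios from 57.3 to 154. The value of each member in each library is shown in the panels of CPM by group.

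**Figure D1:**
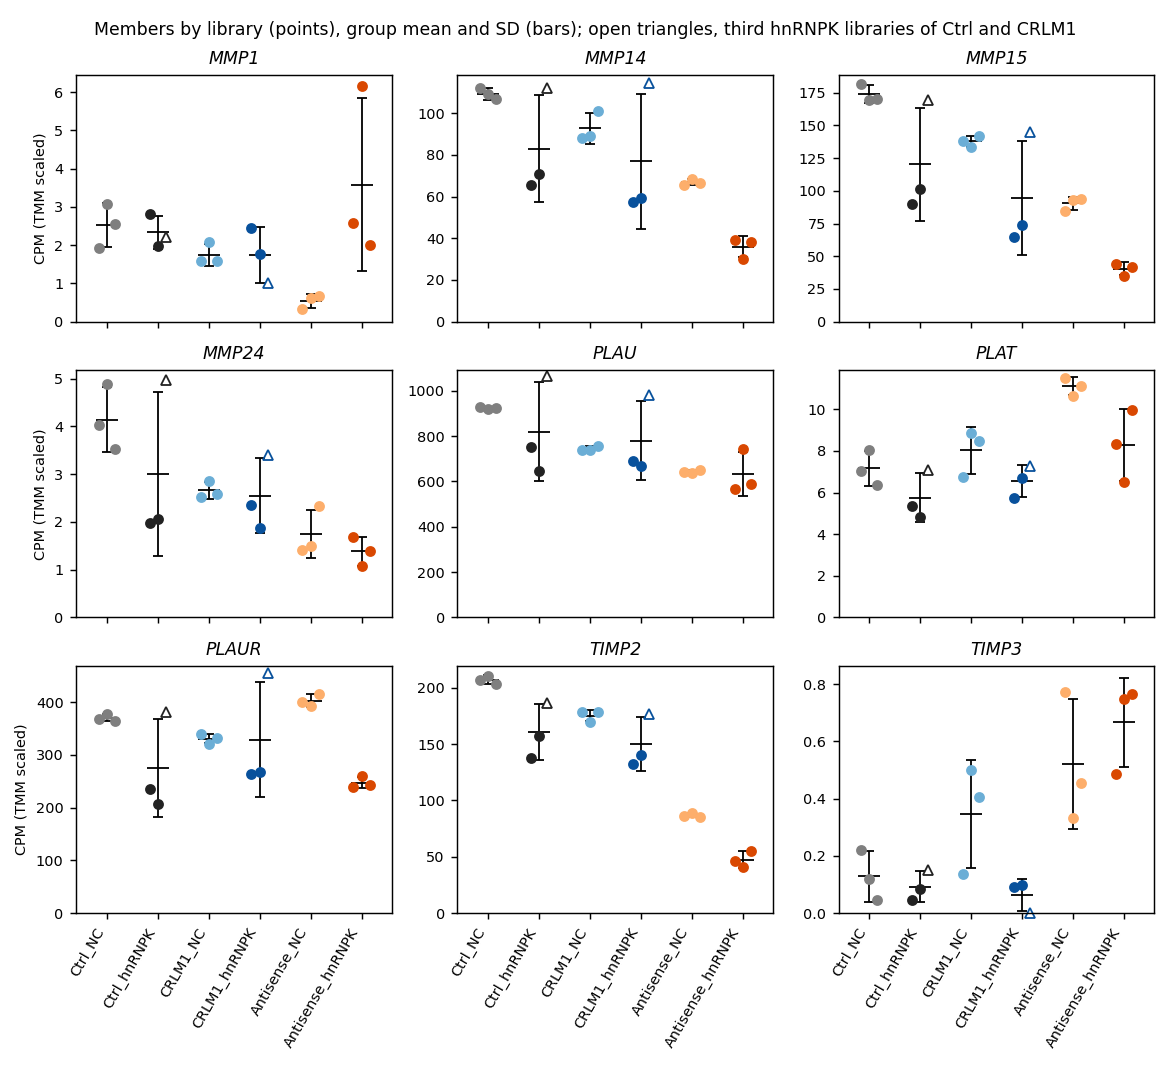
Normalised counts (CPM, y axis, from 0) of the 9 genes in the 6 groups (x axis). Points are libraries, horizontal marks and bars are the mean and SD of 3 replicates, and open triangles are replicate 3 of Ctrl_hnRNPK and of CRLM1_hnRNPK. MMP14, MMP15 and TIMP2 are lowest in Antisense_hnRNPK, and MMP1 is lowest in Antisense_NC. The open triangles lie above the other 2 replicates of their group for MMP14, MMP15, MMP24, PLAU, PLAT, PLAUR and TIMP2. In CRLM1_hnRNPK those of MMP14, MMP15, MMP24, PLAU and PLAUR also lie above the NC libraries of that background (455 against 321 to 340 CPM for PLAUR).

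MMP1 (ENSG00000196611.4, chromosome 11, GRCh38 102789401 to 102798160, minus strand) was a low transcript in all groups. In Antisense_NC it had 0.344, 0.624 and 0.659 CPM, from 8, 15 and 13 counts, and in Antisense_hnRNPK 2.59, 6.17 and 1.99 CPM, from 69, 190 and 52 counts. All 3 Antisense_hnRNPK libraries lay above all 3 Antisense_NC libraries, and replicate 2 lay far above the other two. This is the difference that led to the choice of the genes, with a log2 fold change of 2.73 ± 0.46 (SE), and of 2.04 without Antisense_hnRNPK replicate 2.

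In the other backgrounds the MMP1 difference was within the spread between replicates. Ctrl_NC had 1.93, 3.08 and 2.54 CPM and Ctrl_hnRNPK 2.81, 1.98 and 2.21 CPM, with a log2 fold change of -0.16 ± 0.28 (edgeR, adjusted p = 0.731). CRLM1_NC had 1.57, 2.09 and 1.58 CPM and CRLM1_hnRNPK 2.45, 1.78 and 0.999 CPM, with a log2 fold change of 0.03 ± 0.37 (adjusted p = 0.978). The lowest of these CRLM1_hnRNPK values belonged to replicate 3, and without it the log2 fold change was 0.31 ± 0.30 (adjusted p = 0.387). The hnRNPK difference in the antisense background thus started from the lowest group. Antisense_NC was the lowest of the 6 groups and overlapped none, whereas Antisense_hnRNPK, at 3.58 ± 2.26 CPM (SD, n = 3), overlapped Ctrl_NC at 2.52 ± 0.58 CPM. Against Ctrl_NC, MMP1 in Antisense_NC had a log2 fold change of -2.26 ± 0.33, and CRLM1_NC against Antisense_NC gave 1.71 ± 0.36, both without a test because the Antisense_NC libraries took part in the choice. CRLM1_NC was lower than Ctrl_NC by a log2 fold change of -0.55 ± 0.26 that did not pass (adjusted p = 0.104).

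MMP14 and MMP15 ran together. Over the 18 libraries their log2 CPM correlated at 0.99, a description over libraries that share groups and GC trends. Both genes are GC-rich, at 58.6% and 65.5% GC in the longest transcript. The bases before the RefSeq start (GRCh38.p14) are shown for this pair and for PLAUR, which followed another pattern. Capitals mark, on either strand, the letters CCCTCCC (a C-rich element of the kind hnRNPK binds), TGANTCA (AP-1) and GGGCGG (GC box, which can overlap the first). Entries were found for 6 of the 9 genes, and all lines are written 5′ to 3′ on the gene's strand: MMP14 at chr14:22836335-22836584 (plus), MMP15 at chr16:58025504-58025753 (plus) and PLAUR at chr19:43670170-43670419 (minus).
MMP14: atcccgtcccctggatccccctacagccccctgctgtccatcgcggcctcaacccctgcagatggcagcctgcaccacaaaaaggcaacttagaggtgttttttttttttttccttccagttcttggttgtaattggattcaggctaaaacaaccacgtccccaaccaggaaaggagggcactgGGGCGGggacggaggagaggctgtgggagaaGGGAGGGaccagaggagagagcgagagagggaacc
MMP15: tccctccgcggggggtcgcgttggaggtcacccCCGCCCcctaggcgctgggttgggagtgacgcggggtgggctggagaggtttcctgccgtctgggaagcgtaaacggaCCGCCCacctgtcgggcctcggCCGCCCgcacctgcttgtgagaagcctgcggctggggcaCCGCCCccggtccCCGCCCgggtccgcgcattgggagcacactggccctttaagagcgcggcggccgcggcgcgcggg
PLAUR: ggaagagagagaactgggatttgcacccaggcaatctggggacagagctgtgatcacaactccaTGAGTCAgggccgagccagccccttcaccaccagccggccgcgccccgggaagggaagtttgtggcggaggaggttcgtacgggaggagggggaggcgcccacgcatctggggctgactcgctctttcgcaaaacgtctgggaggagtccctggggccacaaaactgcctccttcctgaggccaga
The MMP14 window holds 1 match to the C-rich element and 1 GC box, the MMP15 window 5 GC boxes, and the PLAUR window 1 AP-1 match, 186 bases before the start. Among the windows not shown, that of MMP24 holds 1 C-rich match and 3 GC boxes and that of TIMP3 5 GC boxes. PLAU has a window with 2 C-rich matches and 3 GC boxes and another with no match. Of 35114 promoter windows of 250 bases, 24.7% held the C-rich element, 6.57% the AP-1 letters and 42.6% the GC box. These are matches of letters and not measured sites, and a link between them and the levels was not tested.

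MMP14 (ENSG00000157227.12, chromosome 14, 22836560 to 22849041, plus strand) had 112, 109 and 107 CPM in Ctrl_NC, 87.9, 89.0 and 101 CPM in CRLM1_NC and 65.7, 68.4 and 66.6 CPM in Antisense_NC. The 3 groups did not overlap. The log2 fold change against Ctrl_NC was -0.26 ± 0.05 for CRLM1_NC (adjusted p = 4.39e-05) and -0.74 ± 0.05 for Antisense_NC (adjusted p = 3.02e-16). With hnRNPK, replicates 1 and 2 were at 65.5 and 71.0 CPM in the Ctrl background and at 57.2 and 59.1 CPM in the CRLM1 background, below every NC library of the same background. Replicate 3 was at 112 and 114 CPM, at or above the NC libraries. In the antisense background the hnRNPK libraries had 39.4, 30.2 and 38.2 CPM, all below Antisense_NC, with a log2 fold change of -0.91 ± 0.10.

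MMP15 (ENSG00000102996.4, chromosome 16, 58025754 to 58046901, plus strand) showed the same order. Ctrl_NC had 182, 170 and 170 CPM, CRLM1_NC 138, 134 and 142 CPM and Antisense_NC 84.4, 92.9 and 93.7 CPM. The log2 fold change against Ctrl_NC was -0.35 ± 0.04 for CRLM1_NC (adjusted p = 2.45e-09) and -0.98 ± 0.05 for Antisense_NC (adjusted p = 1.68e-20). With hnRNPK the values were 89.9, 101 and 170 CPM in Ctrl, 65.1, 73.5 and 145 CPM in CRLM1 and 44.4, 34.9 and 41.8 CPM in the antisense background. The last group was lower than Antisense_NC by a log2 fold change of -1.17 ± 0.09. The FPKM values of this pair were also set against each other. MMP15 over MMP14 was 1.40 ± 0.029 in Ctrl_NC, 1.19 ± 0.054 in Antisense_NC and 0.989 ± 0.028 in Antisense_hnRNPK (SD, n = 3), with no overlap between these 3 groups and with no test. In CRLM1_NC it was 1.24 to 1.38, which overlapped Ctrl_NC and reached the highest value of Antisense_NC, and in CRLM1_hnRNPK it was 0.999 to 1.11, which overlapped Antisense_hnRNPK. Ctrl_hnRNPK had 1.21 to 1.33.

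MMP24 (ENSG00000125966.9, chromosome 20, 35226690 to 35276998, plus strand) rested on 33 to 122 counts per library. It had 4.02, 4.88 and 3.52 CPM in Ctrl_NC, 2.52, 2.86 and 2.59 CPM in CRLM1_NC and 1.42, 1.5 and 2.33 CPM in Antisense_NC. CRLM1_NC and Antisense_NC lay below every Ctrl_NC library, by -0.66 ± 0.21 (adjusted p = 0.0133) and -1.30 ± 0.23 (adjusted p = 6.50e-06) on the log2 scale. MMP24 was also higher in CRLM1_NC than in Antisense_NC, by 0.64 ± 0.25 (adjusted p = 0.0301), a call that was lost under 10 of 15 alternatives, among them leaving out Antisense_NC replicate 1 (adjusted p = 0.136), Antisense_NC replicate 2 (0.121) or CRLM1_NC replicate 2 (0.0843). In CRLM1_NC against Ctrl_NC, leaving out Ctrl_NC replicate 2 gave an adjusted p of 0.108.

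PLAU (ENSG00000122861.15, chromosome 10, 73909177 to 73917496, plus strand) differed little between replicates without hnRNPK. It had 929, 920 and 926 CPM in Ctrl_NC, 741, 739 and 757 CPM in CRLM1_NC and 642, 638 and 650 CPM in Antisense_NC. The log2 fold change against Ctrl_NC was -0.33 ± 0.03 for CRLM1_NC (adjusted p = 1.83e-12) and -0.56 ± 0.03 for Antisense_NC (adjusted p = 1.48e-18). With hnRNPK, PLAU had 750, 645 and 1065 CPM in the Ctrl and 690, 670 and 982 CPM in the CRLM1 background. In both, replicate 3 lay above every NC library of its background and the other replicates below every one. In the antisense background hnRNPK left PLAU overlapping Antisense_NC, at 567, 746 and 589 CPM and a log2 fold change of -0.03 ± 0.10. The difference is 0.29 once the trend of each library on GC and transcript length is removed, and 0.21 on log2(FPKM + 0.1).

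PLAT (ENSG00000104368.17, chromosome 8, 42174718 to 42207709, minus strand) had the opposite pattern. It was at 7.05, 8.04 and 6.38 CPM in Ctrl_NC, at 6.75, 8.85 and 8.49 CPM in CRLM1_NC and at 11.5, 10.7 and 11.1 CPM in Antisense_NC. Antisense_NC lay above every library of the other groups. PLAT was higher in Antisense_NC than in Ctrl_NC by 0.59 ± 0.13 (adjusted p = 0.000113) and lower in CRLM1_NC than in Antisense_NC by a log2 fold change of -0.44 ± 0.13 (adjusted p = 0.00357). CRLM1_NC and Ctrl_NC overlapped (0.15 ± 0.15, adjusted p = 0.487). The PLAU over PLAT ratio of FPKM was accordingly 134 ± 16 for Ctrl_NC, 96.6 ± 14.4 for CRLM1_NC and 59.6 ± 2.12 for Antisense_NC, as mean and SD of 3 libraries, without overlap between the groups.

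PLAUR (ENSG00000011422.11, chromosome 19, 43646095 to 43670547, minus strand) also departed from its ligand PLAU. It had 368, 377 and 365 CPM in Ctrl_NC, 340, 321 and 331 CPM in CRLM1_NC and 400, 392 and 416 CPM in Antisense_NC. CRLM1_NC was lower than Ctrl_NC, at -0.18 ± 0.03 on the log2 scale (adjusted p = 2.12e-05) and lower than Antisense_NC, at -0.26 ± 0.04 (adjusted p = 8.12e-08). Antisense_NC was above Ctrl_NC by 0.09 ± 0.03 (adjusted p = 0.0229), a small difference that missed the threshold under 6 of 15 alternatives and ranged from 0.07 to 0.32 over all of them. It was 0.07 to 0.08, at adjusted p of 0.0662 to 0.119, when Antisense_NC replicate 3, Ctrl_NC replicate 1 or Ctrl_NC replicate 3 was left out, and 0.29 (adjusted p = 8.53e-11) after the GC and length trend was removed. Antisense_hnRNPK had 239, 259 and 243 CPM, all below Antisense_NC, with a log2 fold change of -0.71 ± 0.08.

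The ratio of PLAUR to PLAU within a library does not depend on library scaling. In FPKM it was 0.483, 0.501 and 0.481 in Ctrl_NC, 0.560, 0.531 and 0.535 in CRLM1_NC and 0.762, 0.751 and 0.781 in Antisense_NC. The 3 groups did not overlap, with the receptor transcript highest relative to that of the protease in Antisense_NC. In Antisense_hnRNPK the ratio was 0.516, 0.425 and 0.503, below every Antisense_NC library and overlapping Ctrl_NC. In the Ctrl background it was 0.383, 0.393 and 0.438 with hnRNPK, below every Ctrl_NC library with replicate 3 included. In the CRLM1 background it was 0.468, 0.487 and 0.566 with hnRNPK, overlapping CRLM1_NC through replicate 3. These ratios were not tested, since 3 against 3 libraries cannot reach a two-sided p under 0.10 in an exact permutation test.

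TIMP2 (ENSG00000035862.12, chromosome 17, 78852977 to 78925387, minus strand) had the smallest adjusted p of these genes in both comparisons with Antisense_NC. It had 207, 211 and 203 CPM in Ctrl_NC, 178, 169 and 178 CPM in CRLM1_NC and 86.3, 88.9 and 85.1 CPM in Antisense_NC. Against Ctrl_NC its log2 fold change was -0.26 ± 0.04 in CRLM1_NC (adjusted p = 2.62e-07) and -1.29 ± 0.04 in Antisense_NC (adjusted p = 2.24e-25), and CRLM1_NC stood 1.04 ± 0.04 above Antisense_NC (adjusted p = 1.11e-21). The last 2 passed the 2-fold criterion. The difference between CRLM1_NC and Antisense_NC was called under all 15 alternatives, at 0.84 to 1.07. Antisense_hnRNPK had 46.3, 40.9 and 55.3 CPM, all below Antisense_NC, with a log2 fold change of -0.88 ± 0.10. In the Ctrl background the hnRNPK libraries had 138, 157 and 187 CPM, each below every Ctrl_NC library, replicate 3 included.

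The TIMP2 transcript was set against the MMP14 transcript in FPKM within a library. This ratio leaves out the other inhibitors and measures neither protein nor activity. TIMP2 over MMP14 in FPKM was 1.69, 1.77 and 1.75 in Ctrl_NC and 1.86, 1.74 and 1.61 in CRLM1_NC, but 1.20, 1.19 and 1.17 in Antisense_NC and 1.08, 1.24 and 1.33 in Antisense_hnRNPK. Both antisense groups lay below all libraries of the other 4 groups. The hnRNPK libraries of the Ctrl background had 1.92, 2.03 and 1.52, and those of the CRLM1 background 2.11, 2.17 and 1.42. Replicates 1 and 2 were above their NC libraries and replicate 3 below them in both.

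**Figure D2:**
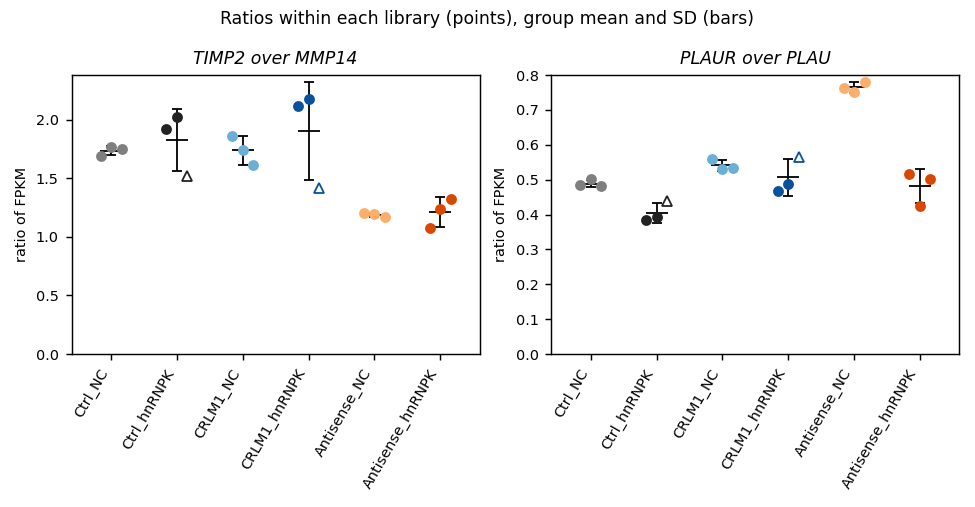
Ratio of FPKM within each library (y axis, from 0) for TIMP2 over MMP14 (left) and PLAUR over PLAU (right) in the 6 groups (x axis). Points are libraries, bars the mean and SD of 3 replicates, and open triangles replicate 3 of Ctrl_hnRNPK and CRLM1_hnRNPK. TIMP2 over MMP14 lies between 1.08 and 1.33 in the antisense groups, and PLAUR over PLAU is highest in Antisense_NC, at 0.751 to 0.781.

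TIMP3 (ENSG00000100234.11, chromosome 22, 32801705 to 32863041, plus strand) was close to the detection limit. Its counts were 4, 3 and 1 in Ctrl_NC, 1, 2 and 3 in Ctrl_hnRNPK and 2, 2 and 0 in CRLM1_hnRNPK, where a count of 0 allows up to 3 counts or at most 0.148 CPM. They were 3, 11 and 8 in CRLM1_NC, 18, 8 and 9 in Antisense_NC and 13, 23 and 20 in Antisense_hnRNPK. Every antisense library held more counts than any Ctrl library. Antisense_NC overlapped CRLM1_NC in counts. Antisense_hnRNPK overlapped CRLM1_NC only in CPM, at 0.487 to 0.766 against 0.135 to 0.499 CPM. TIMP3 passed the filter on low counts only in the pairwise fits of Antisense_NC with CRLM1_NC or with Antisense_hnRNPK, so no fold against the Ctrl groups is given. The floors cover counting error only. CRLM1_NC against Antisense_NC gave -0.56 ± 0.53 (adjusted p = 0.378).

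Counted over the members, 6 of the 8 genes tested passed between CRLM1_NC and Ctrl_NC, each lower in CRLM1_NC (MMP14, MMP15, MMP24, PLAU, PLAUR and TIMP2), beside 17.4% of all genes tested that were lower at that threshold and 34.3% in either direction. The largest of these differences, of MMP24, was 0.634-fold, and none reached 2-fold, which 1.58% of all genes did. On log2(FPKM + 0.1), the calls of MMP14 (-0.18, adjusted p = 0.136), MMP24 (-0.49, adjusted p = 0.122) and PLAUR (-0.10, adjusted p = 0.075) were lost in limma. The median log2 fold change was -0.29 over the 8 genes and 0.01 over all 14459 genes tested. In Antisense_NC against Ctrl_NC, all 7 genes tested besides MMP1 passed, 5 lower (MMP14, MMP15, MMP24, PLAU and TIMP2) and 2 higher (PLAUR and PLAT), beside 32.2% of all genes lower and 34.4% higher. With 66.5% of all genes past the threshold in either direction, the share called is high throughout the transcriptome. MMP24 and TIMP2 were 0.406-fold and 0.409-fold and so past the 2-fold criterion, which 6.94% of genes met in that direction. In CRLM1_NC against Antisense_NC, 5 of the 8 genes tested besides MMP1 were higher (MMP14, MMP15, MMP24, PLAU and TIMP2) and 2 lower (PLAUR and PLAT), beside 26.9% of all genes higher, 29.5% lower and 56.4% either. The log2 fold change was 0.49 ± 0.05 for MMP14 (adjusted p = 7.65e-10), 0.63 ± 0.05 for MMP15 (adjusted p = 2.90e-14) and 0.24 ± 0.03 for PLAU (adjusted p = 5.73e-08). On log2(FPKM + 0.1) and log2(FPKM + 1) the PLAU difference was 0.0724 (adjusted p = 0.0844) and 0.0721 (adjusted p = 0.102) in limma, and 5 members passed in place of 7, without PLAU and MMP24. Of all 25579 genes tested on these scales, 6809 and 6586 passed in either direction. In the edgeR fit of CRLM1_NC against Antisense_NC, TIMP2 alone met the 2-fold criterion, at 2.05-fold, as did 4.01% of all genes in that direction. The 3 comparisons share libraries in pairs, so they are not independent of each other. In 1 fit of all 18 libraries, whose shared spread includes replicate 3 of Ctrl_hnRNPK and CRLM1_hnRNPK, no member passed in CRLM1_NC against Ctrl_NC, 1 (TIMP2) passed in CRLM1_NC against Antisense_NC and 6 of the 7 passed in Antisense_NC against Ctrl_NC, where PLAUR did not. TIMP3 is left out of these counts, since it enters such a fit only through the antisense groups in which it is high. Of all 15668 genes in that fit, 102, 2357 and 5093 passed in these 3 comparisons, in either direction.

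**Figure D3:**
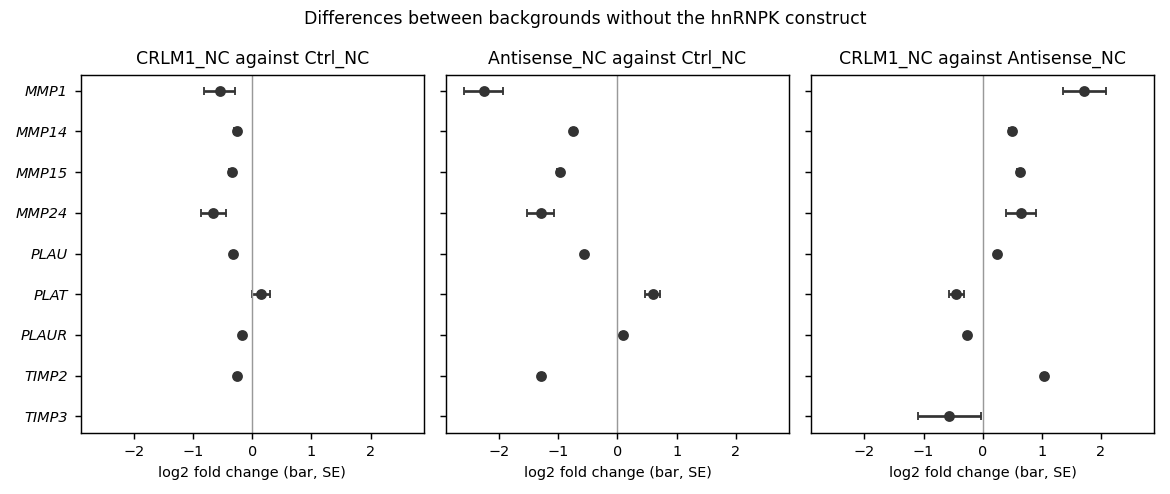
Log2 fold change (x axis) of each gene (y axis) between the 3 backgrounds without hnRNPK, from edgeR fits of 3 against 3 libraries. Bars are standard errors, and genes that did not pass the filter on low counts have no point. PLAU, TIMP2 and the MMPs lie left of 0 in Antisense_NC against Ctrl_NC, from -0.56 for PLAU to -2.26 for MMP1, while PLAUR and PLAT lie right of 0.

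Other genes of matrix proteolysis were counted from a list of 59, of which 49 were in the table and 36 were tested. In CRLM1_NC against Ctrl_NC, 4 rose and 18 fell, and in Antisense_NC against Ctrl_NC 3 rose and 24 fell. In CRLM1_NC against Antisense_NC, 18 were higher and 5 lower. Over all genes tested, 34.3%, 66.5% and 56.4% passed in either direction in these comparisons. The shares lower were 17.4% in CRLM1_NC and 32.2% in Antisense_NC against Ctrl_NC, and 26.9% were higher in CRLM1_NC than in Antisense_NC. The median log2 fold change of the list was -0.23, -0.53 and 0.31 in these comparisons, while that of all genes tested was 0.01, 0.00 and 0.00. The kallikreins KLK6 and KLK10, secreted serine proteases, were lower in Antisense_NC than in Ctrl_NC with log2 fold changes of -1.51 ± 0.06 for KLK6 (adjusted p = 2.74e-23) and -1.51 ± 0.07 for KLK10 (adjusted p = 7.99e-21). They were higher in CRLM1_NC than in Antisense_NC by 1.37 ± 0.06 and 1.09 ± 0.07. MMP28, a secreted MMP, had -1.93 ± 0.38 in Antisense_NC (adjusted p = 2.87e-05) and -0.99 ± 0.34 in CRLM1_NC (adjusted p = 0.0213) against Ctrl_NC, from 1.88 CPM at most. The latter call was lost without CRLM1_NC replicate 1, Ctrl_NC replicate 1 or Ctrl_NC replicate 2 (adjusted p of 0.064 to 0.144). ADAM19, a membrane-anchored metalloprotease, had a log2 fold change of -0.64 ± 0.04 in CRLM1_NC against Ctrl_NC (adjusted p = 7.23e-16). SERPINI1, a serpin that inhibits tissue-type plasminogen activator, was higher in CRLM1_NC than in Ctrl_NC by 1.22 ± 0.34 (adjusted p = 0.00411) and than in Antisense_NC by 0.91 ± 0.31 (adjusted p = 0.012), at 2.09 CPM, and neither call held without CRLM1_NC replicate 2 (adjusted p = 0.0894 and 0.178).

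With the hnRNPK construct and all libraries, no member passed in the Ctrl or the CRLM1 background, where 0% of all genes passed. At an unadjusted p under 0.05, 15.4% and 9.25% of all genes passed, and among the members MMP15 and TIMP2 did in the Ctrl background. In the Ctrl background the log2 fold changes of all 8 genes tested were negative, from -0.16 for MMP1 to -0.57 for MMP15, while 51.9% of all genes tested were lower. DESeq2 called 1 gene in all there and 8 in the CRLM1 background, none of them a member, and edgeR without the filter on low counts called 253 in the Ctrl background, again no member.

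Without Ctrl_hnRNPK replicate 3, 7 of the 8 genes passed, all lower, beside 29.9% of all genes lower and 59.6% in either direction. Replicate 3 was left out here and in CRLM1_hnRNPK for its profile, so the p-values of these fits do not include its spread. PLAUR was lower by a log2 fold change of -0.74 ± 0.07 (adjusted p = 3.96e-08), MMP15 by -0.86 ± 0.07 (adjusted p = 1.39e-08), MMP14 by -0.68 ± 0.07 (adjusted p = 2.39e-07) and MMP24 by -1.04 ± 0.24 (adjusted p = 0.00126). PLAU (-0.41 ± 0.06), TIMP2 (-0.49 ± 0.07) and PLAT (-0.50 ± 0.18, adjusted p = 0.0228) passed too, and MMP1 did not (-0.09 ± 0.28, adjusted p = 0.796). Without CRLM1_hnRNPK replicate 3, 4 of the 8 passed, all lower, beside 29.1% of all genes lower and 58.5% in either direction. These were MMP15 (-0.96 ± 0.06, adjusted p = 3.28e-13), MMP14 (-0.63 ± 0.07, adjusted p = 5.01e-09), TIMP2 (-0.33 ± 0.05, adjusted p = 6.30e-06) and PLAUR (-0.28 ± 0.05, adjusted p = 1.17e-05). PLAU (-0.10 ± 0.05, adjusted p = 0.0698) did not pass. Of the other matrix proteolysis genes, 21 fell and 8 rose in the Ctrl background and 18 fell and 4 rose in the CRLM1 background without these libraries. With the GC and length trend removed too, 14 fell and 2 rose in the former and 9 fell and 2 rose in the latter. Of all genes tested in those fits, 3828 of 14811 and 3931 of 14514 passed in either direction.

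Whether the hnRNPK difference of a gene depended on the background was tested as an interaction, the hnRNPK effect in CRLM1 minus that in Ctrl. With all libraries no member passed (adjusted p = 0.9998 for each), nor did any gene, and 1.46% of all genes had an unadjusted p under 0.05. Without replicate 3 of both hnRNPK groups, PLAUR (0.49 ± 0.08, adjusted p = 0.000879) and PLAU (0.34 ± 0.08, adjusted p = 0.0124) passed, beside 3.36% of all genes with a positive term and 3.45% in either direction. The difference with hnRNPK was thus less negative in the CRLM1 than in the Ctrl background for the receptor and its ligand in those libraries. The p-values of this fit likewise do not include the spread of the libraries left out. The terms of MMP14 (0.07 ± 0.10) and MMP15 (-0.06 ± 0.10) were near 0. With the GC and length trend removed as well, PLAUR kept its call (0.41, adjusted p = 0.00746) and PLAU did not (0.25, adjusted p = 0.1045). Of all 15279 genes tested in that fit, 233 passed in either direction.

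**Figure D4:**
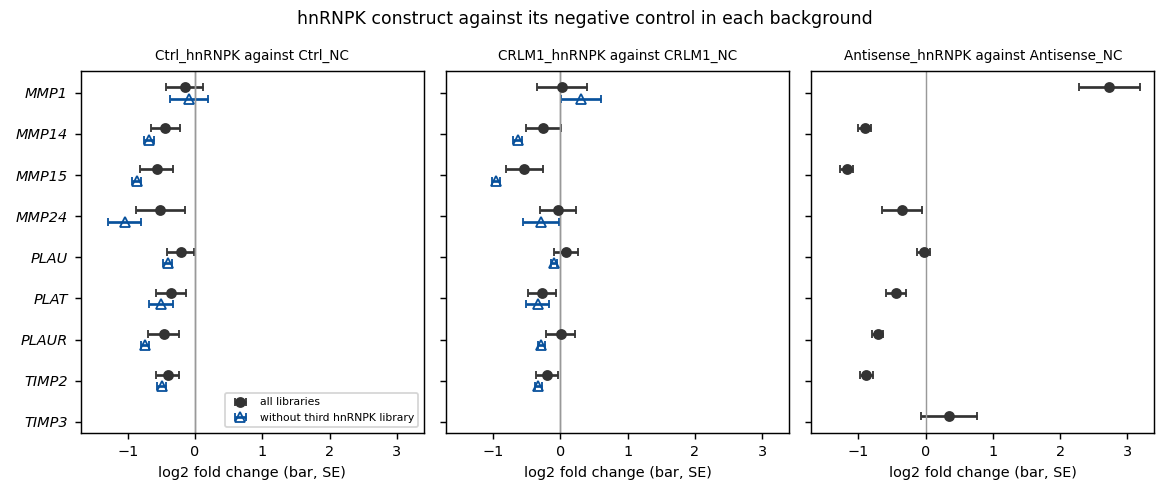
Log2 fold change (x axis) of each gene (y axis) with hnRNPK against the negative control in the Ctrl, CRLM1 and antisense backgrounds, from edgeR fits. Filled circles use all libraries, open triangles leave out replicate 3 of the hnRNPK group, and bars are standard errors. Without that library PLAUR moves from -0.47 to -0.74 in Ctrl and from 0.01 to -0.28 in CRLM1, and MMP1 stands at 2.73 in the antisense background.

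In the antisense background, 5 members were lower with hnRNPK without overlap between the groups (MMP14, MMP15, PLAUR, PLAT and TIMP2) and 1 was higher (MMP1), beside 68.6% of all genes whose groups did not overlap, 33% lower and 35.6% higher. PLAT was at 8.36, 6.49 and 9.96 CPM with hnRNPK, and its log2 fold change was -0.44 ± 0.15. MMP24 and TIMP3 overlapped, at -0.34 ± 0.30 and 0.35 ± 0.41. The median over the 9 genes was -0.44, while that of all genes tested was 0.04. Of the 36 other matrix proteolysis genes tested, 24 were lower, beside 48.1% of all genes. The largest differences were those of SPINT1 (-1.48 ± 0.08), an inhibitor of membrane-bound serine proteases, the endocytic receptor LRP1 (-1.44 ± 0.12) and MMP17 (-1.43 ± 0.13), given without a test.

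GC content moved with the hnRNPK differences. The Spearman correlation of log2 fold change with GC content across all genes, which are not replicates, was -0.71 in the Ctrl, -0.63 in the CRLM1 and -0.71 in the antisense background, and -0.30 in Antisense_NC against Ctrl_NC. The members spanned 43.3% GC (MMP1) and 45.6% (PLAT) to 60.4% (MMP24) and 65.5% (MMP15). After removal of the GC and length trend, the antisense hnRNPK difference was -0.36 for MMP14, -0.44 for MMP15, -0.33 for PLAUR and -0.56 for TIMP2. MMP1 remained at 2.32, PLAT was at -0.67, and MMP24 turned from -0.34 to 0.26. Without Ctrl_hnRNPK replicate 3, the same removal left 4 of the 7 calls, PLAUR (-0.34, adjusted p = 0.000594), PLAT (-0.72, adjusted p = 0.00576), MMP15 (-0.22, adjusted p = 0.0187) and TIMP2 (-0.18, adjusted p = 0.044). Of all 14811 genes tested in that fit, 3828 passed in either direction. Without CRLM1_hnRNPK replicate 3 and with the trend removed, MMP15 (-0.33, adjusted p = 3.66e-05) and MMP14 (-0.19, adjusted p = 0.0289) kept their calls, PLAT passed (-0.58, adjusted p = 0.0122), and PLAU passed in the other direction (0.17, adjusted p = 0.00237). There, 3931 of all 14514 genes tested passed in either direction. In Antisense_NC against Ctrl_NC all 7 calls held after the removal, with TIMP2 at -1.22, MMP15 at -0.73 and PLAT at 0.49. Of all 14223 genes tested in this comparison after the removal, 9200 passed in either direction. The part of GC content in the differences was not tested.

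**Figure D5:**
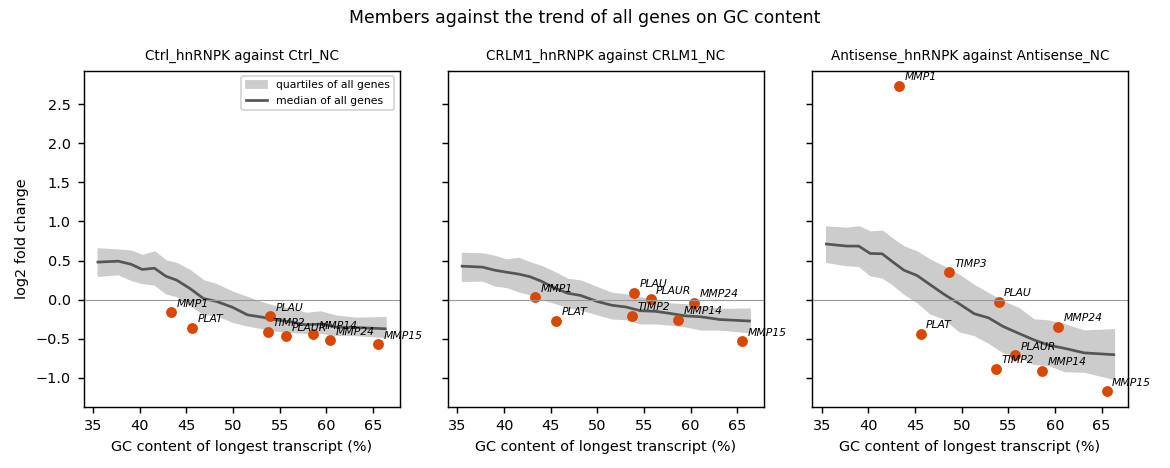
Log2 fold change (y axis) with hnRNPK against GC content of the longest transcript in percent (x axis), in the Ctrl, CRLM1 and antisense backgrounds with all libraries. The line and band are the median and quartiles of all genes in 20 bins of equal gene number, and points are the members. In the antisense background MMP1, at 43.3% GC, lies far above the band, MMP14, MMP15, PLAUR and TIMP2 lie below it, and PLAT and MMP15 lie below it in all 3 panels.

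The genes most alike to each member over the 18 libraries, by Pearson's r of log2 CPM among genes averaging 1 CPM or more, are given as a description. MMP1 was most alike to B3GALT5 (r = 0.859), MMP14 to BMP1, CTSD and SRSF9 (0.991 each), MMP15 to PORCN and SRSF9 (0.993 each), and MMP24 to ID1 (0.936). PLAU was most alike to RP11-290L1.3 (0.921), PLAT to HNRNPUL2-BSCL2 (0.926), PLAUR to ADRBK1 (0.971), TIMP2 to CRTAP (0.992) and TIMP3 to FGFR2 (0.916). The libraries share backgrounds, constructs and the GC trend. CTGF was among the 3 genes most alike to TIMP2 (0.988). Within the set, TIMP2 correlated at 0.921 with MMP14 and at 0.916 with MMP15, but at 0.37 with PLAUR and at -0.363 with PLAT.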

How the data were processed

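RNA from 18 HCT116 libraries was extracted with TRIZOL, prepared with the KAPA RNA HyperPrep kit and sequenced as 151 nt paired ends. The authors trimmed reads with FASTX-Toolkit, aligned them with TopHat2 to GRCh38 with Gencode gene models and deposited counts of uniquely mapped reads per gene as whole numbers. FPKM values were computed by the authors and deposited to 2 decimals. Whether counting used strand is not given in the sources used here, so reads of overlapping and antisense genes cannot be taken as separated. Total counts per library were 19732681 to 27039520, and intervals and floors (3 counts) cover counting error only.

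The tests on the deposited counts used edgeR 4.0.16 under R 4.3.3. Each pair of groups, and the 4 Ctrl and CRLM1 groups for the interaction, was fitted on its own libraries with TMM scaling, filterByExpr and the robust quasi-likelihood test, two-sided, and p-values were adjusted by Benjamini-Hochberg over the genes tested in that fit. The threshold was an adjusted p of 0.05, and a gene past it with a fold change of 2 met the 2-fold criterion. Unless stated otherwise, adjusted p-values come from these fits, values after ± are SE for log2 fold changes and SD otherwise, and CPM were scaled over all 18 libraries. The methods of the study used edgeR with the same thresholds. The fits of CRLM1_NC against Ctrl_NC and of the interaction were also run on simulated counts. Those counts held no library that stood apart, so they cannot show how the hnRNPK fits behave with replicate 3. P-values measure the spread between the 3 libraries of a group, which the labels only number and the study calls biological replicates. Where a library was left out, they measure only the spread between the libraries kept. For replicate 3 of Ctrl_hnRNPK and CRLM1_hnRNPK that choice rested on the profiles themselves.

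The alternatives were RLE scaling, no filter beyond 1 count, DESeq2 1.42.0, limma 3.58.1 on log2(FPKM + 0.1) and log2(FPKM + 1), 1 fit of all libraries, leaving out each library, the replicate number as a block, and removal of each library's trend on GC content and length of the longest Gencode transcript. Leaving out replicate 3 of Ctrl_hnRNPK or CRLM1_hnRNPK together with that removal was added after seeing the data. The members and the gene lists were chosen with earlier results of these data known. All 9 members were named, beside at most 3 listed proteolysis genes per comparison (those past adjusted p with the largest differences) and the 3 genes most alike to each member. The sources disagree on the vector that carried hnRNPK. Promoter sequences are from RefSeq, and gene coordinates from Gencode version 44. No epigenetic or protein measurement was used here.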

Additional observations from a re-analysis of the deposited data

How the results depend on the processing

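Of 920 tested values of the named genes under the alternatives, 801 kept their direction and side of the threshold, 50 lost a call in the same direction, 21 gained one and 48 changed sign. Of 165 values without a test, 26 moved by more than the spread and 7 changed sign. In CRLM1_NC against Ctrl_NC, where 6 members passed, 3 passed on log2(FPKM + 0.1), 3 on log2(FPKM + 1), 0 in 1 fit of all libraries and 5 to 6 when a library was left out. Of all 26005 genes tested on the FPKM scales, 3152 and 2873 passed in that comparison. In CRLM1_NC against Antisense_NC, where 7 passed, 1 passed in 1 fit of all libraries and 6 to 7 without a library, and in Antisense_NC against Ctrl_NC 6 to 7 of the members other than MMP1 and TIMP3 passed under every alternative. The shared spread of the fit of all libraries includes replicate 3 of Ctrl_hnRNPK and CRLM1_hnRNPK. Over its 15668 genes, that fit made 102 calls in place of 4960 in CRLM1_NC against Ctrl_NC. It made 2357 in place of 8102 in CRLM1_NC against Antisense_NC and 5093 in place of 9575 in Antisense_NC against Ctrl_NC. The matrix proteolysis genes called in it were 1, 7 and 16 in place of 22, 23 and 27. On log2(FPKM + 0.1) the share of higher genes among the calls was 64.7%, 26.5% and 70.3% in these comparisons, in place of 49.4%, 47.6% and 51.6%. The causes were not tested. With hnRNPK, leaving out a library gave 0 to 7 members past the threshold in the Ctrl and 0 to 4 in the CRLM1 background, the highest without replicate 3, and 4 in each when the GC and length trend was removed as well. The interaction had 2 without replicate 3 of both groups and 1 with that trend also removed. The median log2 fold change of the members in the antisense background was -0.1956 on log2(FPKM + 0.1), -0.1494 on log2(FPKM + 1) and -0.6326 to -0.3126 without a library.

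Of the values that changed sign, 1 was past the threshold, PLAUR in the CRLM1 background without replicate 3, and the causes were not tested. In the antisense background, PLAU with hnRNPK, at -0.0272, was at 0.2091 and 0.2083 on the FPKM scales, 0.2889 with the GC and length trend removed and 0.0413 without Antisense_hnRNPK replicate 1, and MMP24, at -0.3422, was at 0.2593 with that trend removed. In the Ctrl background, PLAU with hnRNPK was at 0.0082 with the GC and length trend removed, and MMP1 was at -0.3175 to 0.0153 without a library. In the CRLM1 background, PLAUR was at -0.0151 without the filter, -0.0518 and -0.0512 on the FPKM scales, -0.0096 in 1 fit of all libraries and -0.2808 to 0.123 without a library. MMP1 was at -0.0543 and -0.0016 on the FPKM scales, -0.0062 in 1 fit of all libraries, -0.25 with the trend removed, -0.0668 with the trend and replicate 3 removed and -0.3186 to 0.3111 without a library. MMP24 was at 0.1971 with the trend removed, 0.2085 with the trend and replicate 3 removed and -0.2891 to 0.1127 without a library, and PLAU at -0.0967 to 0.1607 without a library. For the interaction, MMP1 was at -0.0275 on log2(FPKM + 0.1) and -0.1812 to 0.4648 without a library, MMP14 at -0.1982 to 0.4422 and PLAT at -0.0514 to 0.2421 without a library, and PLAT at -0.0232 and -0.0256 on the FPKM scales. MMP15 was at -0.1117 and -0.1008 on the FPKM scales, -0.0154 in 1 fit of all libraries, -0.0637 without replicate 3 of both groups, -0.0584 with the trend removed, -0.104 with both and -0.3867 to 0.3468 without a library.

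No pairing by replicate number was seen, as deviations of libraries with the same number correlated at -0.069 to 0.034. With 3 libraries per group these correlations cannot decide how the samples were prepared. The replicate block left the number of members called in each comparison within 1.5 times. Signs changed under the block for PLAUR (-0.0311) and MMP1 (-0.0276) with hnRNPK in the CRLM1 background, and, with the GC and length trend removed too, for PLAU in the Ctrl background (0.0013), for MMP1 (-0.2732) and MMP24 (0.1964) in the CRLM1 background for the interaction of MMP15 (-0.0587), and for PLAU (0.2787) and MMP24 (0.2643) in the antisense background.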
